A study of Mus musculus with 4 samples.

Results

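The 6 mouse actin genes, Acta1, Acta2, Actc1, Actg2, Actb and Actg1, and the 4 tropomyosin genes, Tpm1, Tpm2, Tpm3 and Tpm4, were read in whole normal skeletal muscle. They were chosen by name: every probe set that the platform annotation assigned to exactly 1 of these genes was taken, and control probe sets were left out. All 10 genes were measured, by 21 of the 22690 probe sets, and they are 10 of the 12393 genes tested. No filter on dim values was applied, so all 10 members were tested. Each gene was represented by its probe set of highest mean, and the others served as a check. Where a gene had several, they are numbered from 1 in falling order of their mean.

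The samples were 4 pieces of bulk normal muscle from wild type mice on a mixed 129S4/SvJae and C57BL/6 background, with no treatment and no age given in the labels. They form 1 group of 4 replicates, whose titles are nm7, nm8, skm4 and skm5 in replicate order. The titles carry a prefix, nm or skm, that the labels do not explain, and it is the only label that divides the samples, 2 against 2. The labels name neither the muscle taken nor separate animals, so a p-value here rests on the spread of these samples alone, and that spread may be technical. Fast fibre genes, which define skeletal muscle, had mean levels of 14.43, 14.37, 14.40 and 14.36 over 12 of 12 measured. The series also holds sarcomas, which were not analysed here.

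Actin polymerises into the thin filaments that myosin pulls on, and tropomyosin lies along each filament, where troponin moves it to open or close the myosin sites. In adult skeletal fibres the filament is built from the skeletal actin Acta1. Actc1 is the actin of heart and of embryonic skeletal muscle, Acta2 and Actg2 are the actins of vascular and enteric smooth muscle, and Actb and Actg1 are the cytoplasmic actins found in nearly every cell. Tpm1 supplies the tropomyosin of fast fibres and of heart, Tpm2 a partner chain made in fast and slow fibres, Tpm3 the tropomyosin of slow fibres, and Tpm4 a cytoskeletal tropomyosin. Tpm1, Tpm2 and Tpm3 also give rise to cytoskeletal or smooth muscle forms through other promoters and exons.

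Actin genes are textbook targets of serum response factor, which binds the CArG box, so the promoters of 4 actins are shown here to set the sequence beside the sample patterns that follow. RefSeq windows of 250 bases before to 50 after an annotated start (GRCm38.p6) were found for 8 of the 10 members, in 9 windows. Tpm3 had 2 of them. Actb and Actg2 had none, so their promoters were not searched. Each promoter is written 5′ to 3′ along the gene, and capitals mark a CArG box or a match with 1 of its 6 central bases off.
Acta1 (chr8:123894726-123895025, minus strand): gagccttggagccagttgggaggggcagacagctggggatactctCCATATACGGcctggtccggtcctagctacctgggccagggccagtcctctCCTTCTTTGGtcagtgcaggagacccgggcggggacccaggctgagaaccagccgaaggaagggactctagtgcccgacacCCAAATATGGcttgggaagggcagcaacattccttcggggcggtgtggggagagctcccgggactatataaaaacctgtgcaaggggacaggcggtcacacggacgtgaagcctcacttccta
Actc1 (chr2:114052826-114053125, minus strand): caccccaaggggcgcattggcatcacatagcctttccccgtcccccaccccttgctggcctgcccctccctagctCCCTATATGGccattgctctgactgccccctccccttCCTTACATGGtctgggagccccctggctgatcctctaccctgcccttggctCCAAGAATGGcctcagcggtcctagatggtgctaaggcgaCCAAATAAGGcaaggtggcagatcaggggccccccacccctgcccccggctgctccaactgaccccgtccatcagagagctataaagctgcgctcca
Acta2 (chr19:34255324-34255623, minus strand): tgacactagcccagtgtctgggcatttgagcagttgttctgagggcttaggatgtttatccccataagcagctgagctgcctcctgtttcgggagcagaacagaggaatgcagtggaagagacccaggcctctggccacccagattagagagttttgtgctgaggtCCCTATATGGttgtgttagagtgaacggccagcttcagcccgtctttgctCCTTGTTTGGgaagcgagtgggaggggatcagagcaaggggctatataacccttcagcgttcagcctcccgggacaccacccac
Actg1 (chr11:120348446-120348745, minus strand): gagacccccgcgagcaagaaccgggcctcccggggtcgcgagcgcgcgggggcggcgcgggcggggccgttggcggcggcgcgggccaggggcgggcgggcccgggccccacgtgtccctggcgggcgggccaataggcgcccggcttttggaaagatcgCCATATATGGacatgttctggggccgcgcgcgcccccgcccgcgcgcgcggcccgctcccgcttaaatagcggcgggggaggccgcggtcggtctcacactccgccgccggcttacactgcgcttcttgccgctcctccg

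Both strands were searched. A full CArG box was found in 1.63% of 32851 promoter windows and in those of 3 of the 8 members with a window. It was CCAAATATGG in Acta1, beginning 73 bases before the start, CCAAATAAGG in Actc1, 47 bases before, and CCATATATGG in Actg1, 90 bases before. The form with at most 1 central base off, which includes the full box, was in 9.98% of all windows. Among the members it was in Acta1, Acta2, Actc1, Actg1 and both Tpm3 windows. Acta2 had 2 such matches and no full box, while Actc1 had 3 besides its full box. TATAAA was in 13.6% of windows and in those of Acta1, beginning 7 bases before the annotated start, and Actc1, beginning at base 34 after it. All distances are from the annotated start, which was not checked. CATTCC, the core of the MCAT element, was in 14.7% of windows and in those of Acta1, Acta2 and Tpm1. CANNTG, the E-box, was in 72.3% of windows and in all 9 of the members. In the promoters shown, no match of these other motifs overlapped a marked box. These matches describe letters and are not measured binding.

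**Figure D1:**
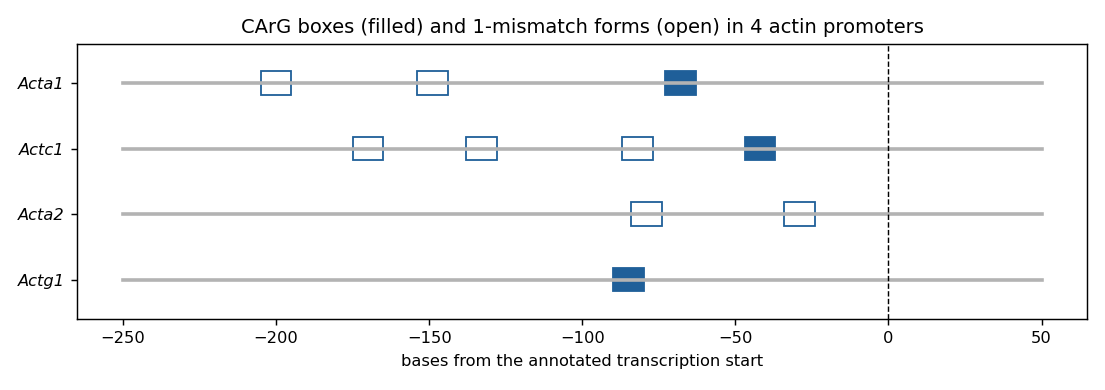
Positions of CArG boxes (filled blocks) and of matches with 1 central base off (open blocks) in 4 actin promoters, on a horizontal axis of bases from the annotated transcription start (dashed line). Acta1, Actc1 and Actg1 each hold 1 filled block, at 73, 47 and 90 bases before the start, and Acta2 holds 2 open ones.

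The authors made the log2 expression values from 1-colour Affymetrix arrays by RMA, robust multi-array averaging. A difference of 1 is a 2-fold change. Differences can be compressed near the brightest values of an array, and the highest value on any array was 14.76. Values are given for each sample in the order nm7, nm8, skm4 and skm5. Probe sets differ in how brightly they bind, so levels of different genes were not set against each other. The difference between prefixes, 2 samples against 2, was tested with limma (2-sided). P-values were adjusted by Benjamini-Hochberg across the 12393 genes, and an adjusted p under 0.05 counted as a call. The error after a difference is its standard error in limma.

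The SD over the 4 samples was above the median SD of all genes, 0.19, in 4 of 10 members, which were Actg2, Actg1, Tpm3 and Tpm4, where 50% of genes lie above it by construction. With probe sets averaged within each gene it was 5 of 10. Of the 21 member probe sets, 12 had an SD above 0.19, beside 11693 of all 22626 probe sets. The SDs ran from 0.036 for Tpm1 to 0.56 for Actg2 (n = 4), with a median of 0.15. The small SDs of Tpm1 and Acta1 were measured at 14.54 to 14.74, close to the brightest value on the arrays, where differences can be compressed.

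Between the prefixes, 0 of 10 members passed limma's test, beside 0.0323% of all genes (4 genes). At an unadjusted p under 0.05 there were 2 members, Actg1 and Tpm4, both lower in skm, beside 23.5% of genes in either direction and 13% in that direction. The prefixes did not overlap in 6 of 10 members, beside 54.4% of genes. Of these 6 members, Acta2, Actc1 and Tpm2 were higher in skm and Actb, Actg1 and Tpm4 lower. Of the 21 probe sets, 13 did not overlap, beside 52.9% of all probe sets. An unadjusted p under 0.05 was met by 6 of the 21, beside 21.8% of all probe sets. Of the 6, 1 was higher (Tpm2) and 5 lower (Actb, Actg1, Tpm4 and 2 of Tpm3). Of all 22626 probe sets, 2290 were higher and 2643 lower at that p. The median difference was 0.020 over the members and -0.0034 over all genes. By count, the members were therefore close to the rest of the array, and what follows describes how single members varied.

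**Figure D2:**
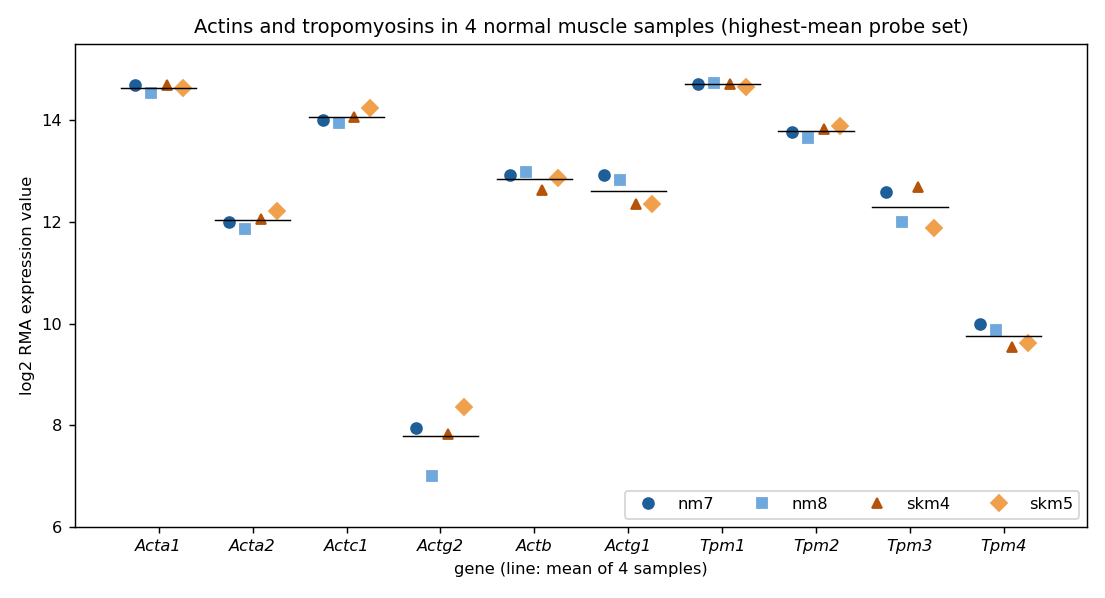
Log2 RMA expression value of each member by its highest-mean probe set (vertical axis) in nm7, nm8, skm4 and skm5 (symbols), with the mean of the 4 samples as a line. Actg2 spans 7.01 to 8.35 and Tpm3 11.88 to 12.69, while the 4 symbols of Acta1 and of Tpm1 nearly coincide near the top of the scale.

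Acta1, the actin of adult skeletal fibres, read 14.70, 14.54, 14.69 and 14.64. The highest sample was 1.12-fold over the lowest, and the prefixes overlapped. Its difference, skm minus nm, was 0.049 ± 0.13 (adjusted p = 0.85, limma), and the SD of 0.075 was at or above that of only 8.39% of genes. Without nm8 the difference was -0.030, so it had no settled direction.

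Actc1, the cardiac and embryonic actin, read 14.00, 13.95, 14.06 and 14.23. Both skm samples were above both nm samples, with skm5 the highest. The difference was 0.17 ± 0.13 (adjusted p = 0.48, limma), with a 95% interval from -0.15 to 0.49. Markers of heart muscle were read beside it: 9 of 9 were measured, their mean level was 5.48 and 5.35 in the nm samples and 5.61 and 5.48 in the skm samples, and 4 were higher and 0 lower in skm without overlap. These readings were dim, with a median level of 5.24 over the list and 7.86 over all genes. Of all genes, 25.8% were higher in skm without overlap and 10.6% higher at an unadjusted p under 0.05. None of the 9 passed limma's test. That unadjusted p was met by 2, Ryr2 and Mybpc3, both higher, by 0.55 ± 0.13 and 0.52 ± 0.13. Myh6, the alpha myosin of adult mouse heart, read 5.14, 4.61, 4.66 and 4.33, so it did not share that direction. Genes of embryonic, regenerating or denervated fibres, where Actc1 is also made, were 10 of 10 measured, with mean levels of 7.80 and 7.71 in nm and 8.10 and 8.14 in skm. Of these, 4 were higher and 0 lower in skm without overlap, beside 25.8% and 28.6% of all genes. The 4 were Myog, Chrna1, Chrnd and Tnnt2. The same 4 had an unadjusted p under 0.05, beside 10.6% of genes higher at that p, and 0 passed limma's test. The myosin genes of the list, Myh3, Myl4 and Myh8, overlapped, with differences of 0.0039 ± 0.35, -0.0093 ± 0.12 and 0.11 ± 0.19. The part of heart or embryonic genes in the Actc1 values was not tested.

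Acta2, the vascular smooth muscle actin, read 11.99, 11.86, 12.06 and 12.22. The prefixes did not overlap, and the difference was 0.21 ± 0.13 (adjusted p = 0.37, limma). This probe set is of the kind (suffix _s_at) whose probes can match more than 1 gene, so its reading is uncertain among near-identical actins. The other Acta2 probe set was dim, at 4.15, 4.45, 4.42 and 4.71, and overlapped between prefixes with a difference of 0.26 ± 0.17.

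Acta2 and Actc1 were the closest pair among the 45 pairs of members. After each gene was centred on its mean, their values in the 4 samples differed by a root mean square of 0.036. Smooth muscle and pericyte markers, 14 of 14 measured, had a mean level of 9.35 and 9.24 in nm and 9.32 in both skm samples. Of these, 4 were higher and 3 lower in skm without overlap, beside 25.8% and 28.6% of all genes. In this list 0 passed limma's test, and 3, all higher, had an unadjusted p under 0.05, beside 10.6% of all genes. Myl9, the smooth muscle regulatory light chain, read 10.53, 10.43, 11.19 and 11.55, with a difference of 0.89 ± 0.16 (adjusted p = 0.066, limma). Myh11, the smooth muscle myosin, read 9.70, 9.10, 9.25 and 9.36, and Tagln, another smooth muscle protein, 10.62, 10.49, 10.57 and 10.35. Myl9 had both skm samples highest, as Acta2 did, and Myh11 and Tagln did not. The part of smooth muscle cells in the Acta2 values was not tested. In bulk muscle, fewer cells of a type and less RNA per cell cannot be told apart.

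Actg2, the enteric smooth muscle actin, had the widest spread of the members, with values of 7.95, 7.01, 7.83 and 8.35. The highest sample, skm5, was 2.54-fold over the lowest, nm8, and an SD at or below that of Actg2 was found in 96.9% of genes. The prefixes overlapped, since nm7 read above skm4. The difference was 0.61 ± 0.35 (adjusted p = 0.35, limma), with an interval from -0.25 to 1.47. It rested on single samples: it was 0.14 without nm8, 0.35 without skm5 and 1.08 without nm7, and the SD was 0.27 without nm8.

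Tpm2, Actc1, Acta2 and Actg2 were each lowest in nm8 and highest in skm5. That order was met by 4 of 10 members and by 8.22% of all genes, and was noticed after the values were seen. The mean level of keratinocyte markers, 9 of 10 measured, was also highest in skm5 but lowest in nm7, at 5.92, 6.24, 5.95 and 7.61. In skm 1 was higher and 0 lower without overlap, beside 25.8% and 28.6% of all genes. Trp63 and Sfn were not highest in skm5, at 6.21, 5.60, 5.37 and 6.09 and at 6.06, 6.13, 6.17 and 6.12. The part of keratinocytes in the values of these members was not tested. The order was met by 3 of 12 fast fibre genes, 0 of 10 slow fibre genes and 1 of 14 smooth muscle and pericyte markers. Over the 6197 genes whose mean reached the median, the 3 nearest to Actg2 were Ccl11, Tm6sf1 and Art3, at root mean square distances of 0.10, 0.12 and 0.16, where the median gene was at 0.51. Ccl11, the chemokine eotaxin, read 8.30, 7.48, 8.43 and 8.73. With 4 values per gene, such likeness is a description only.

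By the probe sets that stand for them, the cytoplasmic actins read lower in both skm samples, and neither passed the test. Actg1 read 12.92, 12.82, 12.35 and 12.35. Within each prefix its values lay within 0.096, while the prefixes were 0.52 ± 0.12 apart, which is 1.44-fold lower in skm. The adjusted p was 0.085 (limma; unadjusted 0.0055), and over its alternatives it ran from 0.013 to 0.30. With genes below the median level filtered out the adjusted p was 0.024, and with an intensity trend in the fit it was 0.013, both past the threshold. These settings called many more genes, 1026 of 6197 and 1110 of 12393, where the main fit called 4. Its only probe set also has the suffix _s_at, so reads of Actb or other actins could enter it.

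Actb by its highest-mean probe set read 12.91, 12.99, 12.63 and 12.87. Both nm samples were above both skm samples, by 0.20 ± 0.14 on average (adjusted p = 0.43, limma), and the gap between nm7 and skm5 was small. Probe set 2 read 12.46, 12.50, 11.82 and 11.83. Its difference was -0.65 ± 0.12 (adjusted p = 0.067 in limma over all probe sets), with both skm samples far below both nm samples. On the same arrays the 2 probe sets were thus 0.48 apart on average in nm and 0.93 in skm.

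Control probe sets for beta-actin, left out of the members by rule, read the transcript in 3 parts and differed again. The 5′ part read 13.09, 12.98, 14.19 and 14.30, so that skm was 1.21 higher. The middle part read 12.48, 12.33, 12.33 and 12.49 and the 3′ part 13.71, 13.54, 13.74 and 13.86, with differences of -0.00052 and 0.18. The 3′ part minus the 5′ part was 0.62 and 0.56 in nm and -0.45 and -0.44 in skm. For Gapdh, a glycolytic enzyme read the same way, it was 0.21 and 0.25 in nm and 0.042 and 0.017 in skm, and for the transferrin receptor 1.99 and 1.92 in nm and 1.54 and 1.5 in skm. It was lower in skm for 18S ribosomal RNA as well, at -0.26 and -0.032 in nm and -0.94 and -0.96 in skm. Pyruvate carboxylase, the last of the 5 controls, went the other way, with 3.05 and 2.83 in nm and 3.21 and 3.67 in skm. These ratios are used as signs of RNA quality and labelling. The controls for 18S ribosomal RNA moved with the prefix too: the 3′ part read 13.28, 13.29, 10.87 and 11.23. The part these signs play in the lower cytoplasmic actins of skm was not tested. No single direction for Actb between the prefixes held over these 5 probe sets.

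**Figure D3:**
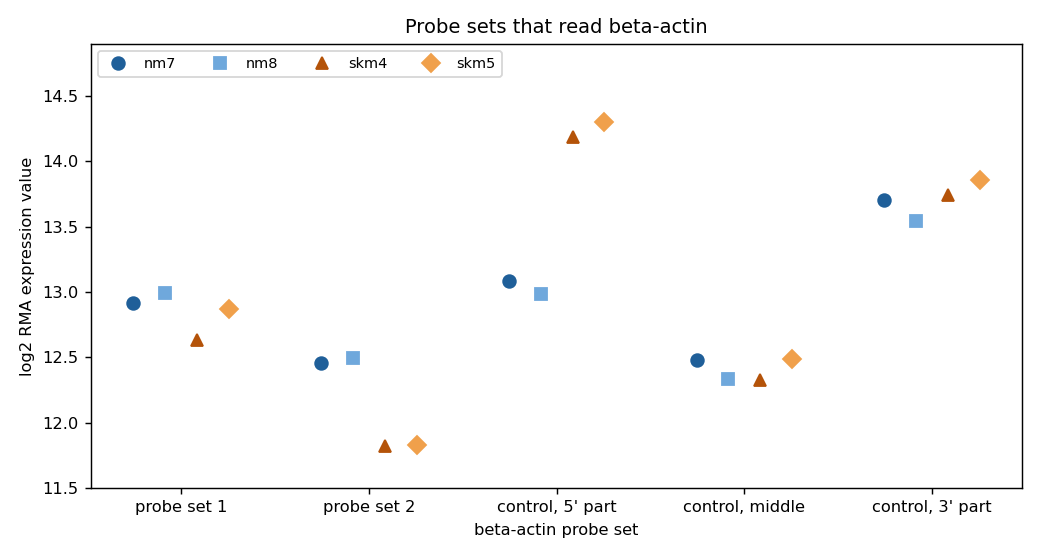
Log2 RMA expression values (vertical axis) of the 2 Actb probe sets and of the 3 beta-actin control probe sets in nm7, nm8, skm4 and skm5 (symbols). The skm samples sit lowest for probe set 2, at 11.82 and 11.83, and highest for the 5′ control, at 14.19 and 14.30.

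Cells other than fibres also carry Actb and Actg1, and lymphocyte markers moved with the prefix. All 10 of 10 were measured and all were lower in both skm samples, with mean levels of 8.44 and 8.70 in nm, 6.09 in skm4 and 7.32 in skm5. Ptprc, the pan-leukocyte phosphatase CD45, read 10.43, 10.54, 7.28 and 9.33. Macrophage markers, 10 of 10 measured, had mean levels of 8.96 and 8.89 in nm, 8.52 in skm4 and 8.95 in skm5, with 3 lower and 0 higher in skm without overlap and 2, both lower, at an unadjusted p under 0.05. Fibroblast markers, 10 of 10, had mean levels of 11.82, 11.63, 11.45 and 11.72, with 5 lower and 0 higher without overlap and 1, lower, at an unadjusted p under 0.05. Endothelial markers, 10 of 10, had mean levels of 9.04, 8.99, 9.205 and 9.30, with 4 higher and 3 lower in skm without overlap. At an unadjusted p under 0.05, 3 were higher and 1 lower. In each of these lists 0 passed limma's test. Of all genes, 28.6% were lower and 25.8% higher without overlap, and 13% lower and 10.6% higher at that p. The macrophage counts, and the fibroblast count at that p, were near these shares. From skm4 to skm5 the lymphocyte markers rose by 1.23 on average, Actb by 0.24 and Actg1 by 0.0016. The part of these cells in the actin values was not tested.

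Tpm4, the cytoskeletal tropomyosin, followed Actg1. It read 9.997, 9.87, 9.54 and 9.62, both skm samples below both nm samples, with a difference of -0.35 ± 0.12, which is 1.28-fold lower in skm (adjusted p = 0.17, limma; unadjusted 0.032). Its distance to Actg1 after centring was 0.090, the smallest that either had to another member. The order with both skm below both nm and skm4 lowest was met by Actb, Actg1 and Tpm4, and by 16.2% of all genes. The genes nearest to Tpm4 were Mpdz, Myhas and Them4, at distances of 0.011 to 0.013, and those nearest to Actg1 were Rsbn1, Rlim and Tshz1, at 0.017 to 0.020. With so many genes in that order, close neighbours are easily met.

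Of the main tropomyosins of the fibres, Tpm1 varied little and Tpm2 varied by an amount that depended on the probe set. Tpm1 read 14.71, 14.74, 14.71 and 14.65, just under the brightest value on any array, and its difference was -0.042 ± 0.12 (adjusted p = 0.86, limma). Its other probe sets, which read between 8.70 and 9.80 and so are not compressed at the top, differed by 0.040 ± 0.13 and 0.011 ± 0.16. Tpm1 thus had no settled direction, and the widest range of any of its probe sets was 0.28.

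Tpm2 read 13.77, 13.66, 13.84 and 13.88, with a difference of 0.14 ± 0.12 (adjusted p = 0.52, limma). All 4 of its probe sets had both skm samples above both nm samples. The other 3 differed by 0.36 ± 0.16, 0.41 ± 0.16 and 0.32 ± 0.13, with adjusted p of 0.20 to 0.27 in limma over all probe sets, and probe set 3 had an unadjusted p of 0.040. They read the same direction at a larger size than the probe set that stood for the gene, and their SDs were 0.25, 0.27 and 0.20 against 0.096. With the mean of its probe sets the difference of Tpm2 was 0.31. In nm8 all 4 were at their lowest. The annotation gives the same transcript accession to probe sets 1, 2 and 4, and probe set 2 has the suffix _x_at, so the 4 are not independent checks.

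**Figure D4:**
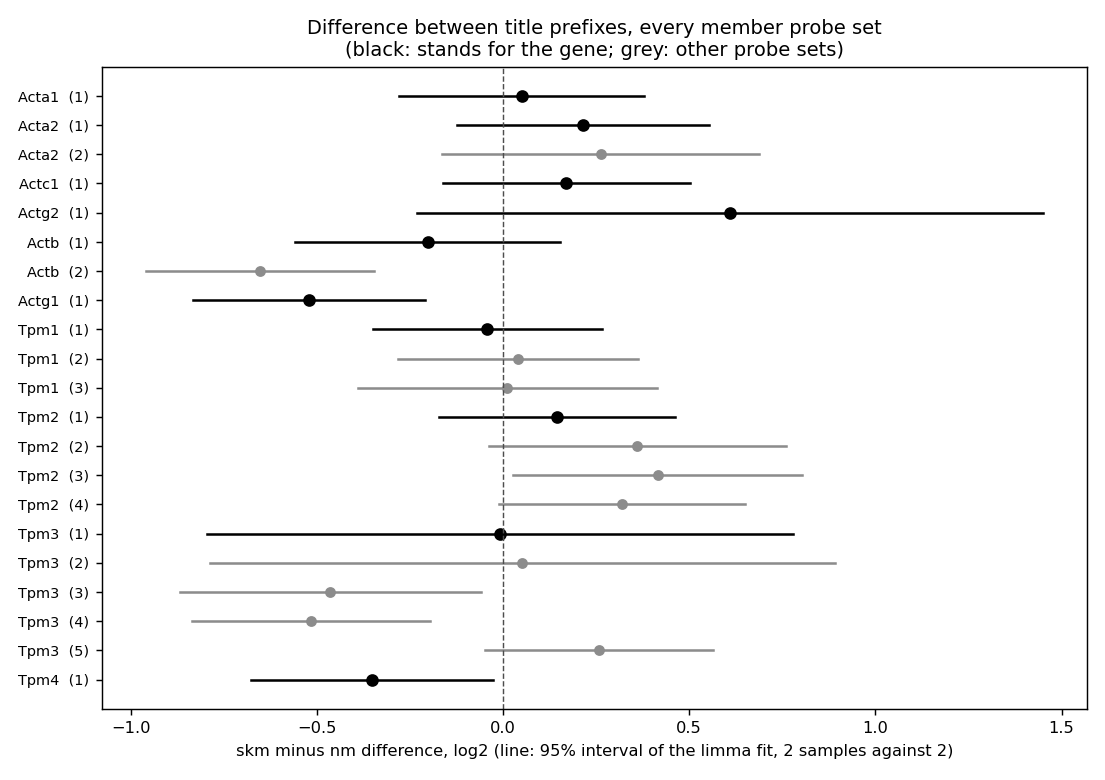
Difference between title prefixes (skm minus nm, log2, horizontal axis) for the 21 member probe sets, with 95% intervals of the limma fit over all probe sets. Black marks the probe set that stands for each gene and grey the others. The 4 Tpm2 probe sets lie to the right of 0, both Actb probe sets to the left, and those of Tpm3 on both sides.

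Tpm3, the tropomyosin of slow fibres, was next to Actg2 in spread, and its samples split within each prefix. It read 12.59, 12.00, 12.69 and 11.88, so nm7 and skm4 were high and nm8 and skm5 low. The gap was 0.59 within nm and 0.80 within skm, and the highest sample was 1.75-fold over the lowest. The difference between prefixes was -0.0088 ± 0.32 (adjusted p = 0.99, limma). Since 1 sample of each prefix was low, the difference turned to 0.29 without nm7 and 0.39 without skm5.

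Most slow fibre genes alternated within the prefixes in the same way. Of the 10 measured, 9 were lower in nm8 than in nm7 and in skm5 than in skm4, beside 21.5% of all genes, and 2 of 10 members were, Tpm3 and Acta1. The exception was Casq2, the slow and cardiac calsequestrin, at 10.54, 10.80, 10.04 and 9.96. Csrp3, a muscle LIM protein, met this order within prefixes but had both skm samples below both nm samples, at 11.25, 11.02, 10.50 and 9.72. Among fast fibre genes it was 3 of 12. The genes nearest to Tpm3 were Tnnt1, Myl2 and Tnnc1, at distances of 0.033, 0.037 and 0.057, where the median gene was at 0.39. They encode slow troponin T, a slow myosin light chain and slow troponin C. Tnnt1 read 12.21, 11.66, 12.33 and 11.46, and Myl2 13.15, 12.63, 13.34 and 12.48. All of these stand on the slow fibre list, and the spread of that list was known when Tpm3 was chosen.

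The 5 probe sets of Tpm3 did not follow 1 pattern. Probe set 2 read 12.14, 11.54, 12.34 and 11.44, and shared the alternation of probe set 1, to which the annotation gives the same transcript accession. Probe set 3 read 10.76, 10.54, 10.04 and 10.34, with both skm samples below both nm samples and a difference of -0.46 ± 0.16. Probe set 4 read 8.49, 8.52, 7.92 and 8.06, with a difference of -0.52 ± 0.13. Probe sets 3 and 4 had skm4 lowest, as Actb and Tpm4 did. The annotation gives no accession for probe set 4, whose suffix is _x_at. Probe set 5 read 6.54, 6.58, 6.83 and 6.80 and was higher in skm by 0.26 ± 0.12. None passed limma's test over all probe sets, with adjusted p of 0.95, 0.18, 0.10 and 0.30 in the order given. On the same arrays probe set 1 minus probe set 3 was 1.83, 1.45, 2.65 and 1.55, widest in skm4. Which transcript each probe set reads was not analysed here.

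**Figure D5:**
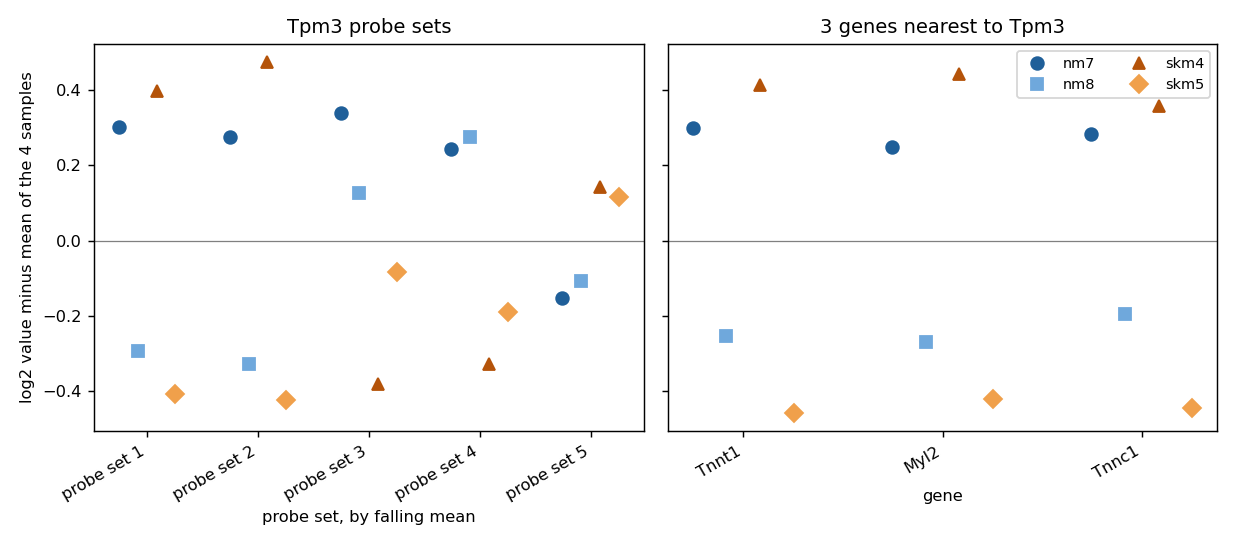
Left, log2 values of the 5 Tpm3 probe sets after subtracting the mean of the 4 samples. Right, the same for Tnnt1, Myl2 and Tnnc1, the genes nearest to Tpm3. In probe sets 1 and 2 and in the 3 genes, nm7 and skm4 lie above 0 and nm8 and skm5 below, while probe sets 3 and 4 have both nm above both skm.

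Genes that work on the same filaments were read from lists, none of which had a member past limma's test over all genes. Troponins stand on the fibre type lists too. Counts are of measured genes, 17 of 21 and 16 of 18 in the 2 lists that follow. Without overlap, 25.8% of all genes were higher and 28.6% lower in skm, and 10.6% and 13% at an unadjusted p under 0.05. Of 17 thin filament caps, rulers and troponins, 4 were higher and 3 lower in skm without overlap, with a median difference of -0.0099, a median SD of 0.15, and 1 in each direction at an unadjusted p under 0.05. Among them Capza1, a subunit of the barbed end cap, read 10.76, 10.87, 10.16 and 10.25, and Lmod2, which elongates the pointed end, 10.53, 9.47, 10.80 and 10.20. Of 16 genes of actin turnover, 7 were higher and 5 lower, with a median of -0.068 and 2 in each direction at an unadjusted p under 0.05. Cap1, which recycles actin monomers, differed by 1.38 ± 0.14 (adjusted p = 0.051, limma), at 7.51, 7.52, 8.75 and 9.04, and Cfl1, the non-muscle cofilin that severs filaments, by -0.64 ± 0.16 (adjusted p = 0.11, limma).

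Of 20 listed actin nucleators, 13 were measured. In skm 2 were higher and 8 lower without overlap, beside 25.8% and 28.6% of all genes, and the median difference was -0.18. An unadjusted p under 0.05 was met by 4, all lower, beside 13% of genes in that direction. Actr3, a core subunit of the Arp2/3 complex that branches filaments, read 11.17, 11.12, 10.39 and 10.60, with a difference of -0.65 ± 0.13 (adjusted p = 0.075, limma). Arpc5, another subunit of that complex, differed by -0.59 ± 0.13 and Diaph2, a formin, by -0.72 ± 0.19, with adjusted p of 0.085 and 0.11. The other measured subunits of the Arp2/3 complex did not move as far. Arpc2 differed by -0.17 ± 0.12 and Arpc1a by -0.013 ± 0.12, while Arpc4 was higher in skm, by 0.15 ± 0.12. Actr3, Arpc5 and Diaph2 were low in the same samples as Actg1 and Tpm4. The 18S controls, the beta-actin 3′ to 5′ values and the lymphocyte markers given above moved with the prefix here too, and their part was not tested.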

How the data were processed

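Expression was measured in 4 samples of normal muscle. The authors deposited 1 log2 value per probe set and sample. Per the submitters' processing notes these came from RMA in Affymetrix Expression Console 1.1, and the sources used here do not give the set of arrays normalized together. That the scale is log2 follows from the values (2.80 to 14.76, array medians 7.26 to 7.30). The 64 control probe sets were not tested. The platform annotation gave 1 gene for 20380 probe sets, and symbols were updated through Entrez identifiers. The highest-mean probe set stood for each gene. Differences between title prefixes were fitted with limma 3.58.1 in R 4.3.3 (lmFit, eBayes; 2 residual and 3.51 prior degrees of freedom) and the fit was tested on simulated data. Single probe sets other than those standing for a gene were fitted over all 22626 probe sets that are not controls. Precision is limited by the number of arrays.

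The members, the lists and the alternatives were chosen with earlier results of these data known. All members are named. For members with an SD at or above the median, the 3 genes with the smallest root mean square distance of centred values are named, and up to 3 genes of a list by the size of their difference or SD. Defining genes of lists (Myh6, Myh11, Tagln, Casq2) were named after their values were seen, as were Chrna1, Chrnd, Myh3, Myh8, Myl4, Trp63 and Sfn. So were Arpc1a, Arpc2 and Arpc4. Alternatives were quantile normalization, median centring, the mean of probe sets, leaving out probe sets with suffix _x_at or _s_at, a filter at the median level, an intensity trend, a threshold of 0.10, the range in place of the SD, single probe sets, and each sample left out.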

Additional observations from a re-analysis of the deposited data

How the results depend on the processing

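No member passed the test under most alternatives. Actg1 did, as the only member, once genes under the median level were filtered out, with a trend on intensity, and at a threshold of 0.10. That filter also removed Actg2, which was then not tested. Leaving out probe sets of suffix _x_at or _s_at removed the only probe set of Actg1, so that alternative could not call it. Genes of the lists past the test, 0 in the main fit, numbered 6 with quantile normalization, 5 with the mean of probe sets, 5 without probe sets of suffix _x_at or _s_at, 20 with the filter, 27 with the trend and 24 at 0.10, and 0 to 6 with 1 sample left out. Over all genes the 4 became 188, 92, 142, 1026, 1110 and 995 in the same order, and 0 to 15 with 1 sample left out (15 without skm5, 0 without any other). The cause of these changes was not tested. Of the 109 alternative values of the members' differences, 98 kept direction and side of the threshold, 2 became calls (Actg1) and 9 turned direction. For Tpm3 these were 0.014 with median centring, 0.29 without nm7, 0.39 without skm5, and 0.052 and 0.26 in its probe sets 2 and 5. For Tpm1 they were 0.0029 with the mean of probe sets, and 0.040 and 0.011 in its other probe sets. For Acta1 it was -0.030 without nm8. With 1 sample left out, the difference ran from -0.030 to 0.13 for Acta1 and from -0.41 to 0.39 for Tpm3. The median difference of all genes lay between -0.037 and 0.020 under each alternative. Differences near the top of the scale (Acta1, Tpm1) may be understated. No paired analysis was possible because all samples form 1 group and share no replicate numbers between groups.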

Other observations

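Actin cross-linkers and genes around serum response factor went both ways between the prefixes. Of all genes, 25.8% were higher and 28.6% lower in skm without overlap, and 10.6% and 13% at an unadjusted p under 0.05. Of 15 actinins and cross-linkers, 6 were higher and 4 lower in skm without overlap, 0 passed limma's test, and 3, all higher, had an unadjusted p under 0.05. Synpo2, a Z-disc and smooth muscle actin bundler, read 9.46, 9.24, 10.46 and 10.45 in nm7, nm8, skm4 and skm5 (difference 1.11 ± 0.13, adjusted p = 0.051, limma). Actn2, an alpha-actinin of the Z-disc, differed by 0.60 ± 0.19. Of the 12 measured genes around serum response factor, 4 were higher and 4 lower, 0 passed limma's test, and 2 in each direction had an unadjusted p under 0.05. Ccn2, a matrix growth factor, stood at 0.97 ± 0.23, Rock1, a kinase that drives contractility, at -0.78 ± 0.17, and Cnn2, a non-muscle calponin, at -0.61 ± 0.13.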
